A study of Mus musculus with 11 samples.

Results

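Fatty acids taken up by the liver are bound by carrier proteins, activated to acyl-CoA and then stored or oxidised. Long chains enter mitochondria on carnitine and are shortened there by a repeating spiral of dehydrogenation, hydration, dehydrogenation and thiolysis, while very long chains are first shortened in peroxisomes. The acetyl-CoA that is formed feeds the ketone bodies which the liver exports during fasting. Glucagon, the pancreatic hormone of fasting, is known to favour this oxidation, partly by restraining acetyl-CoA carboxylase, whose product malonyl-CoA blocks carnitine palmitoyltransferase 1, and many genes of the pathway are known targets of the nuclear receptor PPAR-alpha.

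The results concern 37 genes of fatty acid uptake, oxidation and ketogenesis, chosen by name and found on the arrays by the RefSeq accession that each probe was designed on. All 37 had at least 1 probe, 47 probes in all, and they belong to the 20144 genes that the arrays could name. Liver RNA came from db/db mice, which lack a working leptin receptor and are obese and diabetic. One group of 5 samples (replicates 1, 3, 4, 5 and 6) was labelled PBS, and the design text calls these mice untreated. The other group of 6 samples (replicates 1 to 6) had received 3c7.v44 at 5 mg/kg, an antibody that binds the receptor of glucagon (GCGR). Both groups carried the db/db genotype, so no lean or wild-type liver was compared here. Age, sex, length of treatment and feeding state were not given in the sources used here, and no label says that each sample came from its own mouse, so a p-value here reflects only how these samples spread, which may be technical.

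Each array held liver cRNA in Cy5 and the same pooled mouse reference RNA in Cy3, and a level below is log2 of liver over reference after background correction and loess normalisation. A difference of levels, antibody minus PBS, is a log2 fold change. Between 66.2% and 77.1% of gene spots per array were well above background in Cy5, and every one of the 37 genes was well above background on all 11 arrays. The arrays came from 3 slides, each scanned once and each holding both groups. The number of arrays limits the precision of every value. In bulk liver, fewer cells of a type and less RNA per cell cannot be told apart. The label of liver held up against the levels of 9 hepatocyte markers, albumin (Alb) among them. Their mean levels ran from 4.47 (Hnf4a) to 7.27 (Fgb) with PBS and from 4.44 (Hnf4a) to 7.12 (Fgb) with the antibody. All 9 were well above background on every array, but so were 14469 of the 15974 genes tested.

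One array stood apart. Over all genes tested, the array labelled anti-GCGR replicate 5 correlated at 0.990 to 0.993 with the PBS arrays and at 0.977 to 0.986 with the other antibody arrays, so values are given with and without it. Because it was set apart by its likeness to the PBS arrays, leaving it out tends to widen the differences. The adjusted p-values without it are therefore biased downward and serve as description only. Gcgr, which encodes the receptor, is not removed by an antibody and so checks no label. Its level was 6.54 ± 0.06 (SD, n = 5) with PBS and 6.72 ± 0.15 (SD, n = 6) with the antibody, a difference of 0.18 ± 0.07 (SE) that did not pass the threshold in the fit across all genes (limma adjusted p = 0.108). An exact permutation test over all 462 splits of the arrays gave p = 0.0433 (two-sided). Without replicate 5 the difference was 0.24 (limma adjusted p = 0.00774).

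Most of the 37 genes moved little, and those that moved did not move as a block. With the antibody 8 genes rose (Cd36, Fabp1, Acsl5, Cpt1b, Decr1, Acaa1b, Pex11a and Ppara), 2 fell (Acadsb and Etfa) and 27 did not pass an adjusted p of 0.05 (limma, two-sided, Benjamini-Hochberg over the 15974 genes tested). Over all genes tested 8.98% rose and 5.66% fell (14.6% either way), and at those shares about 3 of 37 genes would rise and 2 would fall. The median difference was 0.12 over the 37 genes and 0.013 over all genes. Of the 37 genes 26 lay above 0, beside 8577 of the 15974 genes tested. After centring each array on its median, 20 of the 37 lay above 0. The rises were modest: only Pex11a, at 2.27-fold, exceeded 2-fold. Between the groups, the values of 4 genes (Cd36, Decr1, Etfa and Acaa1b) did not overlap at all, against 6.64% of all genes tested.

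Leaving out the array of replicate 5 left all 10 calls in place and added 5 rises, in Slc27a2, Hadha, Decr2, Hsd17b4 and Bdh1, for 13 rises and 2 falls with a median of 0.15. The background rose too, to 14.4% of all genes higher and 9.85% lower (24.2% either way). That array was left out for its likeness to the PBS arrays, so the added calls are no further evidence. Without that array the groups did not overlap in 11 of the 37 genes, against 16.9% of all genes tested. How many genes rose or fell depended on the scaling. Among all genes called, 61.3% were higher in the main fit, 21.3% after centring each array on its median, 45.2% in the scanner's own ratios and 51.3% in Cy5 alone. Under the last 3 of these, 4, 3 and 5 of the 37 genes rose and 4, 1 and 3 fell. The median of the 37 genes stayed above 0 in each, at 0.027, 0.083 and 0.14, and no scaling turned the sign of any of the 10 called genes.

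**Figure D1:**
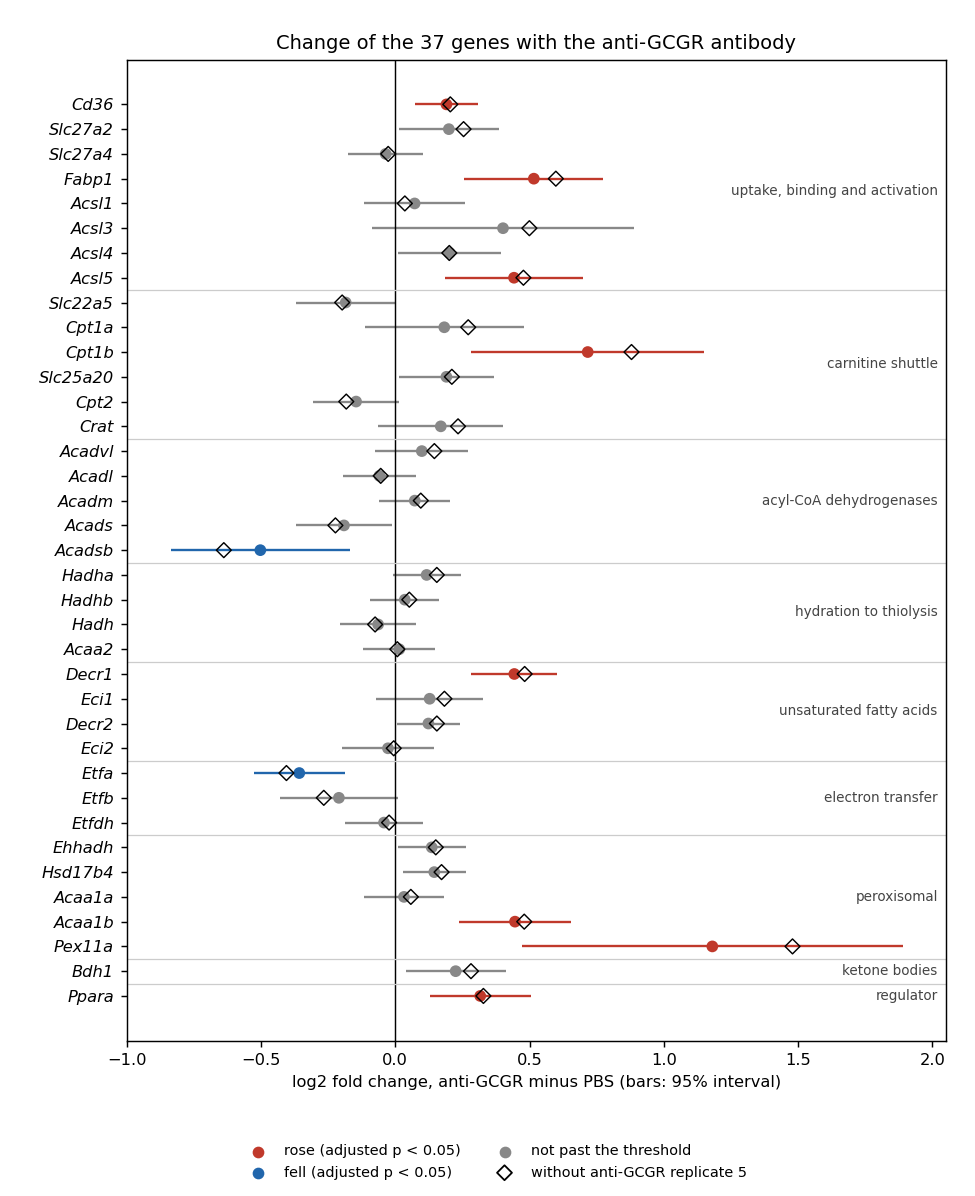
Log2 fold change (antibody minus PBS, horizontal axis) of the 37 genes, grouped by role, with 95% intervals from the fit across all genes (6 against 5 arrays); red points rose, blue points fell and grey points did not pass the threshold. Open diamonds give the difference without anti-GCGR replicate 5; Pex11a lies farthest to the right at 1.18 and moves to 1.48, and Acadsb lies farthest to the left at -0.50 and moves to -0.64.

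Of the 8 genes of uptake, binding and activation, 3 rose and none fell, with a median difference of 0.20, and 4 rose without replicate 5. Of all genes tested 8.98% rose and 5.66% fell, and 14.4% rose without replicate 5. Fabp1, the abundant fatty acid binding protein of the liver cell, stood at 9.64, 9.50, 9.96, 9.9998 and 9.72 on PBS replicates 1, 3, 4, 5 and 6, and at 9.87 to 10.51 (median 10.33) on the antibody arrays. Only replicate 5 of the antibody group, the lowest at 9.87, fell within the PBS range. The difference was 0.52 ± 0.12 (SE), or 1.43-fold (limma adjusted p = 0.0160), and 0.60 without replicate 5 (adjusted p = 0.00106). This call held on leaving out any 1 of the 11 arrays.

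Cd36, the scavenger receptor that imports long-chain fatty acids, stood at 3.31, 3.14, 3.32, 3.19 and 3.17 on the PBS arrays and at 3.34 to 3.52 (median 3.39) on the antibody arrays. All 6 antibody arrays lay above all 5 PBS arrays, but by little. The difference was 0.19 ± 0.05 (SE), or 1.14-fold (limma adjusted p = 0.0330), and 0.20 without replicate 5 (adjusted p = 0.0185). It was lost on leaving out any 1 of 7 arrays (adjusted p up to 0.0840). Cd36 is also made by fat cells, macrophages and endothelium. Some markers of macrophages and endothelium rose, while of 7 tested fat cell markers 1 rose and 1 fell, as given further below.

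Acsl5, an acyl-CoA synthetase that activates fatty acids for oxidation or for storage, stood at 1.89, 1.90, 2.12, 2.41 and 1.86 with PBS and at 2.27 to 2.85 (median 2.42) with the antibody. PBS replicate 5 reached the lower part of the antibody range. The difference was 0.44 ± 0.12 (SE), or 1.36-fold (limma adjusted p = 0.0279), and 0.48 without replicate 5 of the antibody group (adjusted p = 0.0137). Leaving out any 1 of 4 arrays ended the call (adjusted p up to 0.0742). Its relatives did not pass the threshold. The difference of Acsl1, the main synthetase of liver and fat, was 0.07 ± 0.09 on its brighter probe (adjusted p = 0.629) and 0.27 on its other probe. The droplet-associated Acsl3 was spread widely among the antibody arrays, from -0.53 to 0.81, for a difference of 0.40 ± 0.23 (adjusted p = 0.257). Acsl4, which prefers arachidonic acid, differed by 0.20 ± 0.09 (adjusted p = 0.147).

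Both fatty acid transport proteins of the list stayed within the threshold. Slc27a2, an acyl-CoA synthetase for very long chains as well as a transporter, differed by 0.20 ± 0.09 (adjusted p = 0.135) and passed only without replicate 5, at 0.25 (adjusted p = 0.0249). Slc27a4 differed by -0.04 ± 0.07 (adjusted p = 0.761).

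PPAR-alpha binds DNA with RXR at a pair of AGGTCA repeats spaced by 1 base of any kind, and the promoters of the genes were searched for such letters. RefSeq promoters of build GRCm38.p6 (250 bases before to 50 bases after a start site) were found for 32 of the 37 genes, 34 promoters in all, and not for Cpt1b, Crat, Acaa2, Decr1 and Hsd17b4. A pair of AGGNCA repeats spaced by 1 base, on either strand, occurred in 1 of the 34, that of Fabp1, and in 125 of 32851 mouse promoters (0.381%). A looser search, chosen after the data were seen, asked for a pair of AGGTCA repeats spaced by 1 base with at most 2 of its 12 fixed bases different before the start site. It matched 3 of the 34 promoters (8.82%) against 3.24% of all promoters. Among the 105 promoters of further pathway genes described below, the strict search matched 0 and the looser one 8 (7.62%), of which 5 belong to genes that did not pass the threshold (Acot4, Cat, Creb3l3, Lipc and Rxra). The 3 windows of the 37 genes are shown with the matching bases in capitals, since they are all the matches found there. All 3 read along the gene's own strand, and the match lies on the opposite strand, so that the letters appear reversed and complemented.
Fabp1: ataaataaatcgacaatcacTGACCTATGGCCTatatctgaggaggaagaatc
Cd36: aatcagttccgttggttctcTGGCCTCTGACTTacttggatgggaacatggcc
Etfa: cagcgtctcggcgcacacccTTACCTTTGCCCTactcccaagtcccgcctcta
The Fabp1 window spans chr6:71199792-71199844 on the plus strand, its match begins at base -67 from the start site and differs from the pattern at 1 base. For Cd36 the window is chr5:17835927-17835979 on the minus strand, with the match at -63 and 2 bases different. For Etfa it is chr9:55512288-55512340 on the minus strand, with the match at -77 and 2 bases different. A match is a likeness of letters in this short window and no measured site of binding, and the window leaves out distant elements.

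Of the 6 genes of the carnitine shuttle only Cpt1b rose, with or without replicate 5. Over all genes tested 8.98% rose and 5.66% fell (14.4% and 9.85% without replicate 5). The CPT1 enzymes hand long-chain acyl groups to carnitine at the outer mitochondrial membrane, and Cpt1a is the liver form while Cpt1b is the form of muscle and brown fat. Cpt1b stood at 0.25, 0.02, 0.02, 0.26 and 0.03 on the PBS arrays and at 0.02 to 1.57 (median 0.85) on the antibody arrays. The 5 antibody arrays other than replicate 5 lay above every PBS array, the lowest of them at 0.65, and replicate 5 lay at the bottom of the PBS range. The difference was 0.72 ± 0.20 (SE), or 1.64-fold (limma adjusted p = 0.0321), and 0.88 without replicate 5 (adjusted p = 0.000877). Its second probe differed by 0.96. The call was lost on leaving out any 1 of 7 arrays (adjusted p up to 0.0719). No muscle marker passed the threshold as a rise. Of 8 listed 5 could be tested, 0 rose and 1 fell, Myh6 at -0.50, beside the shares of all genes just given. The differences of 4 of the 5 lay above 0 (3 without replicate 5). Acta1 differed by 0.33 (limma adjusted p = 0.0984), with 4 antibody arrays above every PBS array, and by 0.22 without replicate 5. The summed level of the 5 was 3.95 to 5.63 (linear liver over reference) with PBS and 3.72 to 4.94 with the antibody. Without replicate 5 that sum was 3.72 to 4.40, again with 0 rises and 1 fall. Myh6 had the highest level of the 5, so the sum mostly follows that gene and hardly registers Acta1. Ckm, Myl1, Mb and the brown fat marker Ucp1 were not well above background on enough arrays to be tested.

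Cpt1a stood at 2.75, 2.76, 2.64, 2.92 and 2.96 with PBS. In the antibody group it split: replicates 1, 2, 3 and 4 read 3.22, 3.34, 3.07 and 3.14, all above the PBS arrays, while replicates 5 and 6 read 2.54 and 2.62, both below them. The difference was 0.18 ± 0.14 (SE), with a 95% interval from -0.11 to 0.48 (limma adjusted p = 0.409), and 0.27 without replicate 5 (adjusted p = 0.115). The second Cpt1a probe differed by 0.06.

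The other shuttle genes did not pass the threshold with or without replicate 5. Slc25a20, the inner membrane carrier that exchanges acylcarnitine for carnitine, differed by 0.19 ± 0.08 (adjusted p = 0.135). Crat, which handles short acyl groups, differed by 0.17 ± 0.11 (adjusted p = 0.320). Cpt2, the inner enzyme that returns acyl groups to CoA, differed by -0.15 ± 0.07 (adjusted p = 0.207), and the carnitine importer Slc22a5 by -0.18 ± 0.09 (adjusted p = 0.168). Slc22a5 stood at 0.86 on antibody replicate 6, well under the next lowest antibody array at 1.18.

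The 5 acyl-CoA dehydrogenases open each turn of the mitochondrial spiral and are divided by chain length. None rose and 1 fell, with or without replicate 5, the short and branched-chain enzyme Acadsb, which is known chiefly for isoleucine breakdown. Over all genes tested 8.98% rose and 5.66% fell (14.4% and 9.85% without replicate 5). Acadsb stood at 2.23, 2.22, 2.19, 1.95 and 2.13 with PBS and at 1.23 to 2.32 (median 1.56) with the antibody. Replicate 5 was the highest of all 11 arrays at 2.32, and the other 5 antibody arrays, at 1.79 or lower, lay below every PBS array. The difference was -0.50 ± 0.15 (SE), a 1.42-fold fall (limma adjusted p = 0.0451), and -0.64 without replicate 5 (adjusted p = 0.000533). Leaving out any 1 of 9 arrays lost the call (adjusted p up to 0.0983).

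The straight-chain dehydrogenases differed by less. Acadvl, for very long chains, differed by 0.10 ± 0.08, Acadl by -0.06 ± 0.06, Acadm, for medium chains, by 0.07 ± 0.06 and Acads, for short chains, by -0.19 ± 0.08 (adjusted p = 0.450, 0.579, 0.472 and 0.138). Acadm stood between 3.31 and 3.58 with PBS and between 3.40 and 3.63 with the antibody, so the groups lay over each other. Its 95% interval ran from -0.06 to 0.21.

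None of the 4 genes of the later steps of the spiral passed the threshold, beside 14.6% of all genes tested, and their median difference was 0.025. The trifunctional protein subunits Hadha and Hadhb, which hydrate, dehydrogenate and cleave long chains, differed by 0.12 ± 0.06 and 0.04 ± 0.06 (adjusted p = 0.197 and 0.740). Hadha passed without replicate 5 at 0.15 (adjusted p = 0.0413). Hadh, the dehydrogenase for shorter chains, differed by -0.06 ± 0.07 and the thiolase Acaa2 by 0.01 ± 0.06 (adjusted p = 0.564 and 0.904).

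Double bonds of unsaturated chains have to be moved or reduced before the spiral can go on. Decr1, the mitochondrial 2,4-dienoyl-CoA reductase, had the smallest p of the 37 genes. It stood at 4.74, 4.74, 4.94, 4.99 and 4.67 with PBS and at 5.07 to 5.39 (median 5.30) with the antibody, with no overlap, replicate 5 being the lowest antibody array. The difference was 0.44 ± 0.07 (SE), or 1.36-fold (limma adjusted p = 0.00575), and 0.48 without replicate 5 (adjusted p = 0.000453). Its second probe differed by 0.34, and the call held on leaving out any 1 array and under all 7 other normalisations tried. Of these 7, 1 leaves the ratios unchanged. Another is the authors' table, whose median gap to the values used here was 0.0033. The peroxisomal reductase Decr2 differed by 0.12 ± 0.05 (adjusted p = 0.139) and passed without replicate 5 at 0.15 (adjusted p = 0.0353). The isomerases did not pass either way, Eci1 at 0.13 ± 0.09 and Eci2 at -0.03 ± 0.08 (adjusted p = 0.385 and 0.858).

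Electrons from all the acyl-CoA dehydrogenases pass to the electron transfer flavoprotein, a pair of Etfa and Etfb, and on to ubiquinone through Etfdh. All 3 genes had differences below 0, and Etfa passed the threshold. Over all genes tested 5.66% fell (9.85% without replicate 5), and 8577 of 15974 differed by more than 0. Etfa stood at 2.70, 2.82, 2.94, 2.73 and 2.74 with PBS and at 2.23 to 2.67 (median 2.42) with the antibody, where every array lay below every PBS array and replicate 5 was the highest. The difference was -0.36 ± 0.08 (SE), a 1.28-fold fall (limma adjusted p = 0.0132), and -0.41 without replicate 5 (adjusted p = 0.00136). A second probe differed by -0.24, and the call held on leaving out any 1 array. Etfb differed by -0.21 ± 0.10 (adjusted p = 0.184; without replicate 5 -0.27 and 0.0554) and Etfdh by -0.04 ± 0.07 (adjusted p = 0.730).

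**Figure D2:**
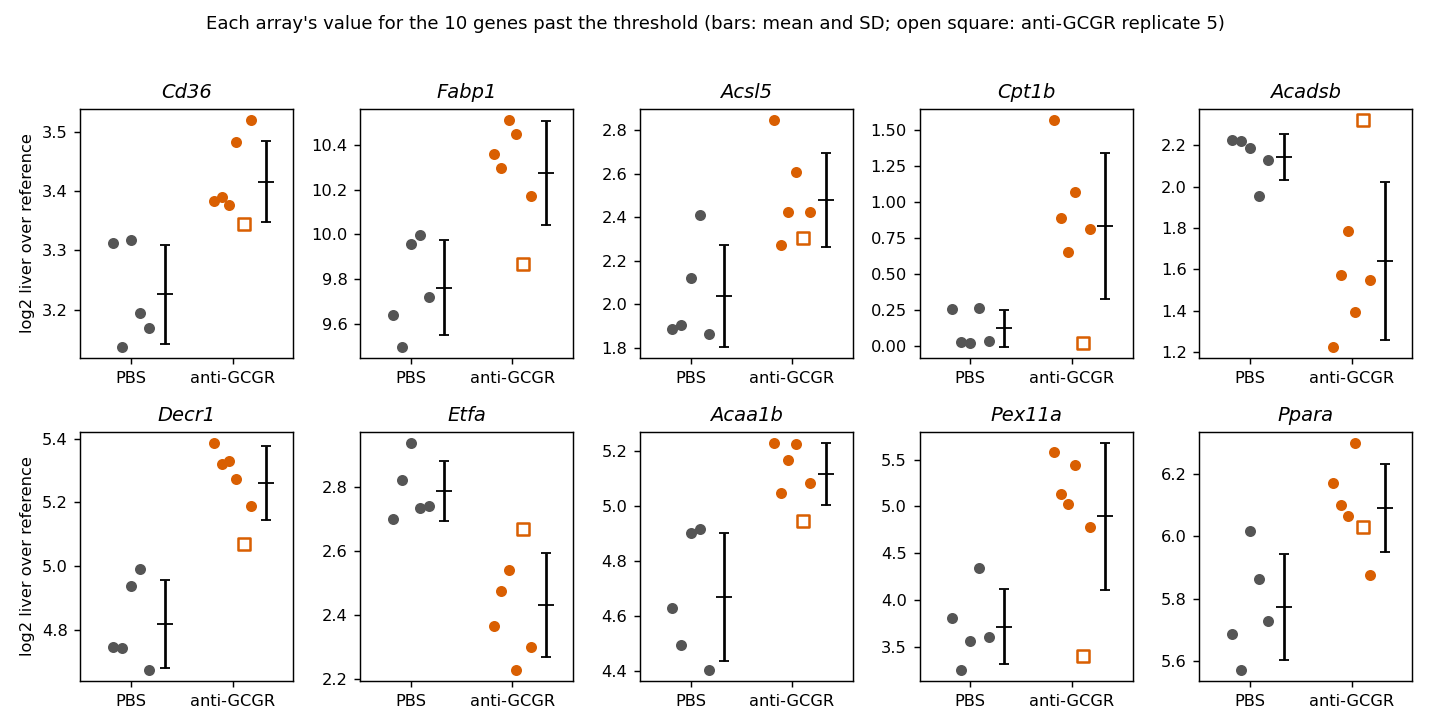
Level (log2 of liver over reference) on each array for the 10 genes that passed the threshold, with PBS arrays in grey (n = 5), antibody arrays in orange (n = 6), and bars for the mean and SD of each group; each panel has its own axis, which does not start at 0. The open square marks anti-GCGR replicate 5, which lies among the PBS arrays for Fabp1, Acsl5, Cpt1b and Pex11a and above them for Acadsb.

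The 5 peroxisomal genes all differed by more than 0, and 2 of them rose (3 without replicate 5). Of all genes tested 8.98% rose (14.4% without replicate 5), and 8577 of 15974 differed by more than 0. Pex11a, a membrane protein that makes peroxisomes elongate and divide, had the widest difference of the 37 genes. It stood at 3.81, 3.25, 3.56, 4.34 and 3.60 with PBS and at 3.40 to 5.58 (median 5.08) with the antibody. The 5 antibody arrays other than replicate 5 read 4.78 or more, above all PBS arrays, while replicate 5 lay among the PBS arrays at 3.40. The difference was 1.18 ± 0.33 (SE), or 2.27-fold (limma adjusted p = 0.0313), and 1.48 or 2.79-fold without replicate 5 (adjusted p = 0.000213). Leaving out any 1 of 9 arrays ended the call (adjusted p up to 0.0786).

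Acaa1b, a peroxisomal thiolase, stood at 4.63, 4.496, 4.90, 4.92 and 4.41 with PBS and at 4.94 to 5.23 (median 5.12) with the antibody, without overlap, though replicate 5 lay only just above the top PBS arrays. The difference was 0.45 ± 0.10 (SE), or 1.36-fold (limma adjusted p = 0.0123), and 0.48 without replicate 5 (adjusted p = 0.00371). It held on leaving out any 1 array. Its neighbour in sequence, Acaa1a, differed by 0.03 ± 0.07 (adjusted p = 0.799). The 2 thiolases are near-identical copies, so the share of each in either probe's signal is uncertain. The enzymes of the middle steps in peroxisomes differed little, Ehhadh by 0.14 ± 0.06 (adjusted p = 0.138) and Hsd17b4 by 0.15 ± 0.06 (adjusted p = 0.0915). Hsd17b4 passed without replicate 5 at 0.17 (adjusted p = 0.0305).

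Bdh1, which turns acetoacetate into 3-hydroxybutyrate, was the only enzyme of ketone bodies among the 37 genes. It stood at 3.36, 3.27, 3.40, 3.55 and 3.14 with PBS and at 3.28 to 3.68 (median 3.62) with the antibody. The difference was 0.22 ± 0.09 (SE; limma adjusted p = 0.0965), and it passed without replicate 5 at 0.28 (adjusted p = 0.0142). Its 2 other probes differed by 0.08 and 0.19.

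Ppara, the gene of the nuclear receptor itself, stood at 5.69, 5.57, 6.02, 5.86 and 5.73 with PBS and at 5.87 to 6.30 (median 6.08) with the antibody. Antibody replicate 6, the lowest of its group at 5.87, was the only one within the PBS range. The difference was 0.32 ± 0.09 (SE), or 1.25-fold (limma adjusted p = 0.0302), and 0.33 without replicate 5 (adjusted p = 0.0214). Its other probes differed by 0.42 and 0.24. The call was lost on leaving out any 1 of 7 arrays (adjusted p up to 0.0774).

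Seen by array, the 37 genes were not raised evenly across the antibody group. The mean of their differences from the PBS mean was 0.230, 0.189, 0.208 and 0.156 on antibody replicates 1, 2, 3 and 4, but -0.0028 on replicate 5 and 0.028 on replicate 6. The PBS arrays ranged from -0.051 to 0.067. Replicate 6 therefore lay with the PBS arrays on this mean. It lay outside the PBS range, in the direction of the change, for 9 of the 10 called genes, all but Ppara. Those genes were called with replicate 6 in the antibody group, so this count is description only. Replicate 6 was also low for Slc22a5, Cpt1a and Cpt2.

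**Figure D3:**
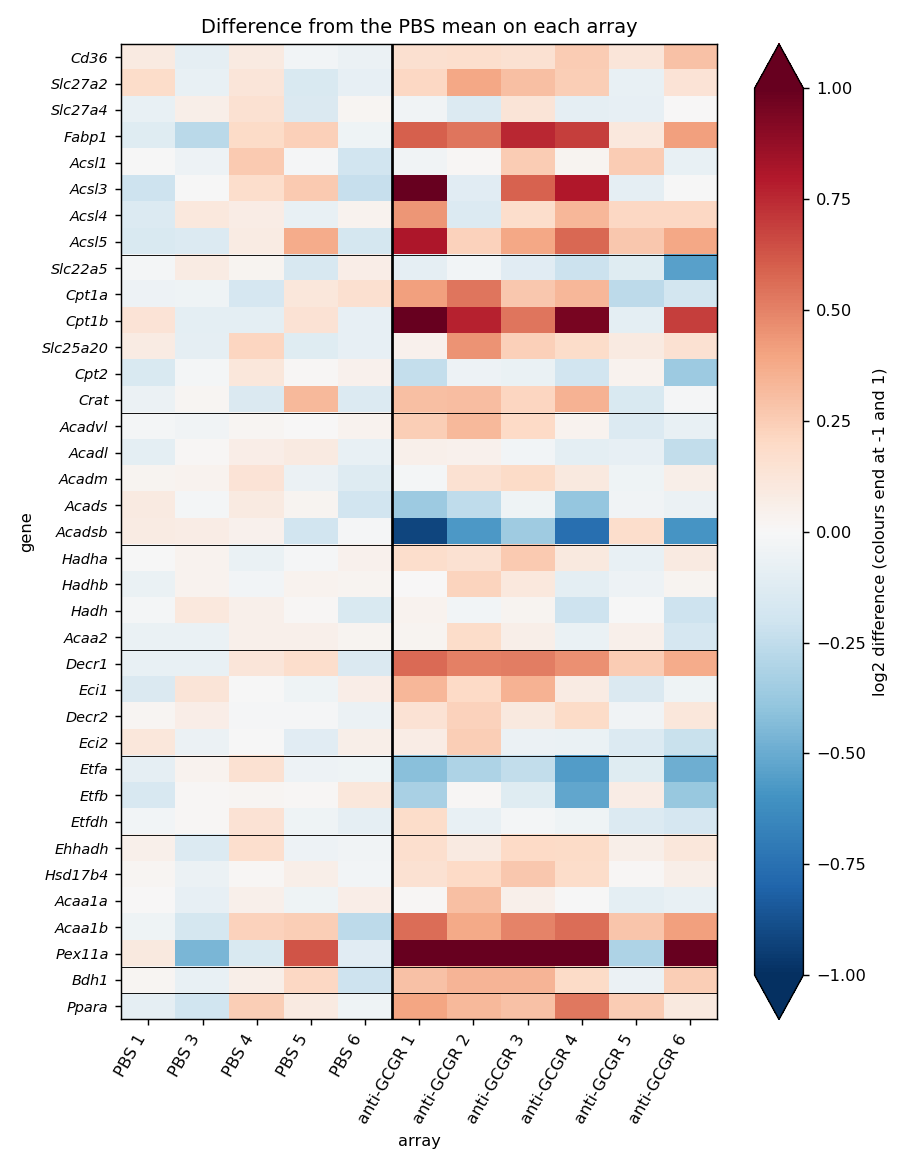
Difference of each array (columns) from the mean of the 5 PBS arrays for each of the 37 genes (rows, grouped by role), in log2 units from blue for lower to red for higher, with colours ending at -1 and 1. The rows of Fabp1, Cpt1b, Decr1, Acaa1b and Pex11a are red across the antibody arrays, paler on replicate 5 or blue there (a difference of -0.099 for Cpt1b and -0.31 for Pex11a), and the rows of Acadsb and Etfa are blue with the exception of Acadsb on replicate 5.

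The differences of the called genes were also read within each slide, with fewer arrays. Within slide 1 (PBS 1 and 4, antibody 1 and 4) the differences of the called genes were 0.12 for Cd36, 0.61 for Fabp1, 0.72 for Acsl5, 1.18 for Cpt1b, -0.90 for Acadsb, 0.49 for Decr1, -0.52 for Etfa, 0.46 for Acaa1b, 1.83 for Pex11a and 0.38 for Ppara. Within slide 3 (PBS 3 and 6, antibody 3 and 6) they were 0.30, 0.74, 0.54, 0.70, -0.51, 0.55, -0.36, 0.67, 1.48 and 0.32 in the same order. All 10 signs were alike on these 2 slides. The genes were called on these same arrays, so the like signs are description and no further evidence. Slide 2 held 1 PBS array, replicate 5, and antibody replicates 2 and 5, and gave 0.17, 0.08, -0.12, 0.19, -0.01, 0.20, -0.16, 0.08, -0.07 and 0.20, where Acsl5 and Pex11a had the opposite sign. With the slide as a block in the fit across all genes, again 8 of the 37 genes rose and 2 fell.

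The Cy3 channel held the same reference RNA on every array, so a Cy3 difference between the groups is a technical measure. For Pex11a the difference was 1.14 in Cy5 and -0.04 in Cy3, for Cpt1b 0.66 and -0.06, for Acsl5 0.46 and 0.02, and for Ppara 0.31 and -0.004. Cd36 differed by 0.16 in Cy5 and -0.03 in Cy3, and Etfa by -0.29 and 0.07. Decr1 differed by 0.33 and -0.12, and Fabp1 by 0.37 and -0.15, so that their ratios differed by more than the liver channel alone. Acaa1b (0.69 and 0.25) and Acadsb (-0.71 and -0.20) moved the same way in both dyes, with the larger move in the liver channel. In Cy5 alone, Cd36, Cpt1b and Ppara no longer passed the threshold (limma adjusted p = 0.184, 0.0564 and 0.0850).

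**Figure D4:**
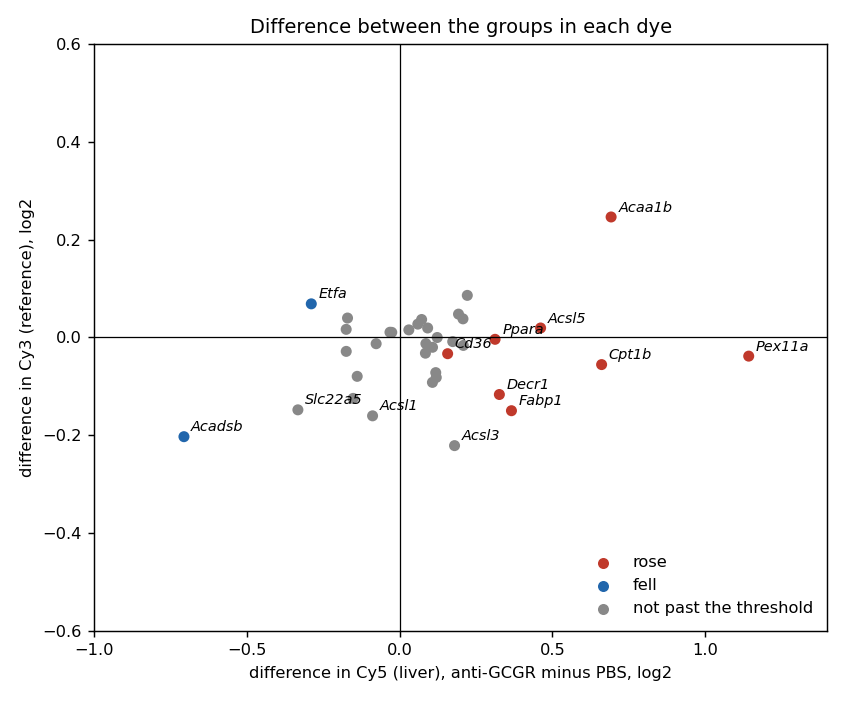
Difference between the groups (antibody minus PBS, log2) in the liver channel Cy5 (horizontal axis) and in the reference channel Cy3 (vertical axis) for the 37 genes; points on the horizontal line differed in the liver channel alone. Pex11a lies far to the right at 1.14 with Cy3 near 0, and Acaa1b is the called gene with the highest Cy3 difference, 0.25.

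The wider pathway was read from a list of 104 further genes, of which 100 could be tested: 20 rose, 9 fell and 71 did not pass, with a median difference of 0.061. Without replicate 5, 30 rose and 14 fell. Over all genes tested the shares were 8.98% higher and 5.66% lower, or 14.4% and 9.85% without replicate 5. Of the 3 genes that set the level of malonyl-CoA, 2 rose. Acacb, the acetyl-CoA carboxylase at the mitochondrial surface, stood at 2.29, 2.47, 2.64, 3.15 and 2.16 with PBS and at 3.23 to 3.92 (median 3.44) with the antibody, all antibody arrays above all PBS arrays. Its difference was 0.97 ± 0.17 (SE), or 1.95-fold (limma adjusted p = 0.00621), and 1.02 without replicate 5 (adjusted p = 0.00109). Acaca, the cytosolic carboxylase of fat synthesis, rose by 1.298 ± 0.29 (adjusted p = 0.0138; 1.49 without replicate 5), with replicate 5 at 1.23 inside the PBS range of 0.46 to 1.59. Its other probes differed by 0.71 and 0.62. Mlycd, which breaks malonyl-CoA down, differed by -0.11 ± 0.05 (adjusted p = 0.150).

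**Figure D5:**
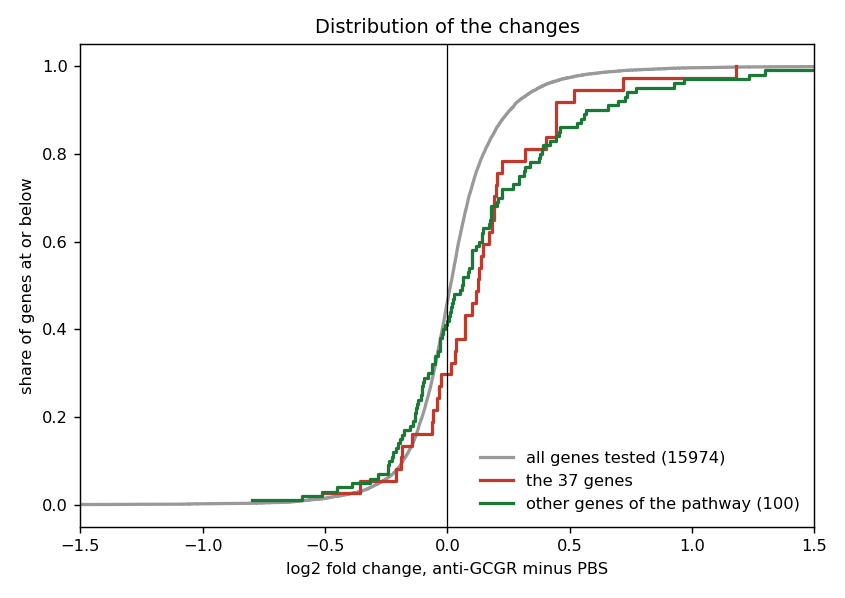
Share of genes (vertical axis) with a log2 fold change, antibody minus PBS, at or below the value on the horizontal axis, for all 15974 genes tested (grey), the 37 genes (red) and the 100 tested further genes of the pathway (green); the axis is drawn over a fixed range around 0. The red curve runs to the right of the grey one over its middle, with medians of 0.12 and 0.013, and the green curve has a median of 0.061.

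Among further genes of uptake and binding 5 rose and 1 fell of 16 tested (7 and 1 without replicate 5). The shares over all genes tested were 8.98% and 5.66% (14.4% and 9.85% without replicate 5). Lpl, the lipase that frees fatty acids from lipoproteins, rose by 0.73 ± 0.11 (adjusted p = 0.00545; 0.80 without replicate 5). Fabp5, a binding protein of skin, fat and macrophages, rose by 1.23 ± 0.27 (adjusted p = 0.0128; 1.401 without replicate 5), and like Lpl did not overlap between the groups. Fabp2 rose by 0.44 ± 0.13, with a Cy3 difference of 0.24, the acyl-CoA binding protein Dbi by 0.53 ± 0.14 and Slc27a3 by 0.29 ± 0.07 (0.54, 0.61 and 0.35 without replicate 5). Leaving out any 1 of 9 arrays for Fabp2, or of 6 for Dbi, ended the call (adjusted p up to 0.108 and 0.0737). Slc27a1, the transport protein of muscle and fat, fell by 0.45 (SE 0.11, adjusted p = 0.0187; a difference of -0.52 without replicate 5).

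Of 15 further mitochondrial enzymes 2 rose and 5 fell, and 4 rose and 6 fell without replicate 5, beside the shares of all genes given above (8.98% and 5.66%, or 14.4% and 9.85% without that array). The falls were in Ivd (-0.59, with a Cy3 difference of -0.32), Echs1 (-0.24), Pcca (-0.28), Pccb (-0.23) and Mmut (-0.21), and without replicate 5 these differences were -0.72, -0.29, -0.35, -0.23 and -0.24. Ivd passed in all 11 fits that left out 1 array, Pccb in 8, Echs1 and Mmut in 2 and Pcca in 1 (adjusted p up to 0.0927 for Pcca). Ivd breaks down leucine, and Pcca, Pccb and Mmut handle propionyl-CoA from amino acids and odd chains, so most of them serve amino acids at least as much as fatty acids. Ech1, an isomerase for unsaturated chains, rose by 0.42 ± 0.10 (adjusted p = 0.0160; 0.50 without replicate 5). Acad12 rose by 0.46 ± 0.13 on its brighter probe (0.52 without replicate 5) and passed in 5 of the 11 fits that left out 1 array, while its other probe, also well above background on all arrays, differed by 0.05. Of 18 further peroxisomal genes 1 rose (Acox3, 0.18) and 1 fell (Phyh, which removes the branch of phytanic acid, -0.39), and 2 rose and 2 fell without replicate 5 (Acox3 at 0.17 and Phyh at -0.46). The calls of Acox3 and Phyh each held in 3 of the 11 fits that left out 1 array.

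Of 10 further genes of ketone body handling that were tested, most did not pass the threshold. The count of their rises is not reported here. Over all genes tested 8.98% rose and 5.66% fell (14.4% and 9.85% without replicate 5). Slc16a6 and Oxct1 were among the rises. Slc16a6, a ketone body exporter, rose by 0.93 ± 0.20 (adjusted p = 0.0121; 1.09 without replicate 5). Oxct1, which lets other tissues use ketone bodies, rose by 0.21 ± 0.06 (adjusted p = 0.0315; 0.20 without replicate 5) from a low level against the reference of -4.5, and passed in 3 of the 11 fits that left out 1 array (adjusted p up to 0.0845).

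Of 38 regulators and known PPAR-alpha targets 7 rose and 2 fell, and 11 rose and 4 fell without replicate 5. At the shares of all genes, about 3 of 38 would rise and 2 would fall. Those shares were 14.4% and 9.85% without replicate 5. The falls were in the coactivators that drive mitochondrial oxidation. Ppargc1a stood at 2.07, 2.29, 2.09, 1.69 and 2.21 with PBS and at 0.97 to 1.5 (median 1.28) with the antibody, without overlap, for a difference of -0.80 ± 0.11 (limma adjusted p = 0.00413; -0.85 without replicate 5). Ppargc1b differed by -0.51 ± 0.15 (adjusted p = 0.0359; -0.55 without replicate 5), also without overlap, and passed in 4 of the 11 fits that left out 1 array (adjusted p up to 0.0824). The rises were in Vnn1 (0.66), the thioesterase Acot2 (0.54), the droplet coat Plin2 (0.77), Ucp2 (0.57), Ucp3 (0.56), the lipase Mgll (0.34) and Pparg (0.32). Without replicate 5 they were 0.81, 0.65, 0.89, 0.62, 0.62, 0.41 and 0.36. Plin2, Ucp2 and Ucp3 passed in all 11 fits that left out 1 array, Vnn1 and Mgll in 4 and Acot2 and Pparg in 2 (adjusted p up to 0.0966).

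Other well known targets of PPAR-alpha did not pass the threshold. The omega-hydroxylases Cyp4a10 and Cyp4a14 differed by -0.12 ± 0.10 and 0.08 ± 0.09 (adjusted p = 0.441 and 0.574). Fgf21, a hormone of fasting, stood at -1.39, -1.61, -1.53, 0.58 and -1.35 with PBS and at -1.60 to 2.27 (median 0.80) with the antibody. PBS replicate 5 read like the antibody arrays and antibody replicate 5 like the PBS arrays. The difference was 1.73 ± 0.59 (adjusted p = 0.0671), and without antibody replicate 5 it was 2.18 (adjusted p = 0.00387). Angptl4, an inhibitor of Lpl, differed by 0.73 ± 0.28 (adjusted p = 0.0996) and Pdk4, which shuts pyruvate out of oxidation, by 0.70 ± 0.27 (adjusted p = 0.102). Both passed without replicate 5, at 0.96 and 0.86 (adjusted p = 0.00553 and 0.0186).

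Markers of other cells moved in the same samples. Beside the counts below, 8.98% of all genes tested rose and 5.66% fell, or 14.4% and 9.85% without replicate 5. Of 9 hepatocyte markers 0 rose and 1 fell (Serpina1e, -0.22), and without replicate 5, 2 rose (Apoa1, 0.44, and Apoc3, 0.19) and 2 fell (Serpina1e, -0.26, and Cps1, -0.42). Their summed level (linear liver over reference) was 664 to 781 with PBS and 644 to 753 with the antibody. Of 7 tested adipocyte markers 1 rose (Cidec, 2.21) and 1 fell (Lipe, -0.30), and without replicate 5 Fabp4 rose as well (0.58). The adipocyte sum was 31.7 to 36.99 with PBS and 33.2 to 107.7 with the antibody, with replicate 5 lowest and the next at 71.3. Cidec carried most of that range, since without it the sum was 23.02 to 31.1 with PBS and 26.1 to 44.8 with the antibody (33.2 or more without replicate 5). Adipoq differed by -0.21 (adjusted p = 0.0974) and Lep could not be tested. Of 10 Kupffer cell and macrophage markers 4 rose, Trem2 (0.90), Cd9 (0.80), Gpnmb (0.55) and Clec4f (0.23), with sums of 169 to 237 and 180 to 255 (209 or more without replicate 5, where 5 rose). Of 6 endothelial markers 2 rose, Stab2 (0.28) and Cdh5 (0.38), with sums of 73.7 to 97.5 and 83.6 to 132.6 (107.9 or more without replicate 5, where Lyve1 rose too, by 1.01). Of 7 stellate cell and fibroblast markers 5 rose, Col1a1 (1.57) and Col3a1 (1.09) the most, with sums of 11.01 to 15.6 and 12.9 to 22.3 (17.4 or more without replicate 5, with the same number of rises). The part of these cells in the differences of Cd36, Fabp5, Lpl and Ucp2, which they are known to express, was not tested. Of 4 cholangiocyte markers 0 rose, and of 5 lymphocyte markers 1 rose (Cd4). Of 2 tested erythroid markers 1 rose (Hba-a1, 0.21), and of 2 tested exocrine pancreas markers 0 rose. None of the markers in these lists fell, and a list of 2 genes tells little. Without replicate 5, 1 cholangiocyte marker rose (Sox9, 0.46) and the counts of the other lists were as before. Some markers also differed between the groups in Cy3, most of all Apoa1 (1.05), Cidec (0.74), Cps1 (-0.55) and Hba-a1 (0.51). In Cy3, Lyve1 was well above background on 0 arrays, Cdh5 on 1 and Cidec on 5, so their ratios rest on a dim reference.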

How the data were processed

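Liver RNA of 11 db/db mouse samples was measured on two-colour Agilent arrays, with groups and replicate numbers taken from the titles. The design text speaks of 6 replicates, and 5 PBS samples were analysed here. Scanner output was deposited as unlogged median intensity values of both dyes and of the background, with a log10 ratio of processed signals and quality flags of each spot, per the file headers (Agilent Feature Extraction 11.5.1.1, or 11 per the submitters' processing notes). A deposited table of log2 ratios by the authors, its processing not given in the sources used, ran as Cy5 over Cy3 without centring per gene. The median absolute gap to the values used here was 0.0033 and the largest 0.457. Their column medians were -0.0026, 0.0022, 0.00079, 0.0081 and 0.00021 on PBS replicates 1, 3, 4, 5 and 6, and -0.00096, 0.0075, 0.0015, -0.0028, 0.0054 and 0.0013 on antibody replicates 1 to 6.

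Arrays were read with limma 3.58.1 (R 4.3.3), corrected with normexp (offset 50) and loess with control spots at weight 0. Uneven spots were dropped, none was saturated, and a probe's spots were averaged. Probes were named by RefSeq accession in a table of assembly GRCm38.p6: 26581 of 39429 probes matched a gene. Kept probes stood well above background in Cy5 on 5 or more arrays, and the brightest kept probe stood for its gene. Antibody and PBS arrays were compared by lmFit and eBayes, Benjamini-Hochberg over 15974 genes. The fit was tested on simulated data. Alternatives were other scalings, background corrections, filters and probe rules, slide or replicate number as a block, array weights and each array left out. Errors are moderated standard errors.

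The 37 genes, the lists and the tests were chosen with earlier results of these data known. Named were all 37 genes, Gcgr, the further pathway genes past the threshold, some further pathway genes whatever their p, and markers by list; a few genes that this rule picks are not reported here.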

Additional observations from a re-analysis of the deposited data

Results flagged for a closer look

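Among 74 groups of arrays examined (the 37 genes in each treatment), 3 held an array far from the rest by Dixon's 95% limit, and chance alone marks about 1 in 20 such groups. Pex11a stood at 3.40 on anti-GCGR replicate 5, where the nearest antibody array read 4.78. Acaa1a stood at 4.21 on anti-GCGR replicate 2 against 3.96 on the nearest, and Slc22a5 at 0.855 on anti-GCGR replicate 6 against 1.18 on the nearest. The causes of these values were not tested.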

How the results depend on the processing

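None of the 10 called genes changed sign in any alternative run. Fabp1, Decr1, Etfa and Acaa1b passed the threshold in all 11 fits that left out 1 array, Acsl5 in 7, Cd36, Cpt1b and Ppara in 4, and Acadsb and Pex11a in 2. Over those fits 782 to 2294 of all genes rose and 458 to 1574 fell, of the 37 genes 3 to 13 rose and 1 to 2 fell, and of the other pathway genes 11 to 30 rose and 3 to 14 fell. The highest counts came without anti-GCGR replicate 5, whose weight was 0.41 when arrays were weighted by their spread. With median centring 581 of all genes rose and 2145 fell, 4 of the 37 genes rose and 4 fell with a median of 0.027, and 9 of the other pathway genes rose and 16 fell. With the scanner's ratio 3 of the 37 rose and 1 fell, and 11 other pathway genes rose. In Cy5 alone 5 of the 37 rose. With no background correction, and with a normexp offset of 10, 1 of the 37 fell. With array weights 2226 of all genes rose and 1560 fell, and 14 other pathway genes fell. At an adjusted p under 0.1, 1469 of all genes fell. Each fit that left out 1 array also held fewer arrays, and the causes of the differing counts were not tested.

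Replicate numbers are shared between the groups, but arrays of the same number did not deviate together (correlations of 0.125, 0.027, -0.013, -0.125 and 0.141 for numbers 1, 3, 4, 5 and 6, and no PBS array was closest to its own number). With the replicate number as a block 711 of all genes rose and 335 fell, 3 of the 37 rose and 0 fell, and 6 other pathway genes rose and 2 fell. The count of 0 is that of limma; Etfa and Acadsb had adjusted p of 0.0517 and 0.121 there.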
